A study of Mus musculus with 8 samples.

Results

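ERV1 is a family of endogenous retroviruses, the remains of retroviruses that entered the germ line and are now inherited as part of the genome. The members described here are the 19878 ERV1 rows of a table of small RNA counts from mouse sperm, out of 1010917 rows in all. They were taken by the family name in the row, and no measured value enters that rule. The family was chosen with earlier results of these data known. Each row is a single genomic copy of an element on a single strand class, sense or antisense. There were 9506 sense rows and 10372 antisense rows under 136 repeat names, which gave 255 sums by name and strand class. A copy is shown on its own when it had 100 or more counts over the 8 libraries, which held for 145 sense copies and 41 antisense copies.

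The tested samples were 4 libraries labelled EtOH-Cessation, from C57BL/6J mice that had been given ethanol and then taken off it. They were set against 4 libraries labelled Control-Cessation, from C57BL/6J mice whose label names control in place of EtOH. The series title puts the cessation at a month, and the question is whether sperm noncoding RNA still differed after it. Mature sperm is what every label names, but the series' design text mentions the caput, the head of the epididymis. They do not say how many animals went into a library, so the p-values below measure the spread between these libraries. They also give no dose or age.

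A full retroviral copy has an internal part with the viral genes, written here with the ending "-int", between long terminal repeats, or LTRs, that carry the promoter. ERV1 holds the relatives of the gammaretroviruses. In the mouse these include murine leukemia virus (MuLV-int, RLTR4_MM-int and its LTR RLTR4_Mm), the VL30 elements (MMVL30-int with the RLTR6 LTRs), the GLN elements (MMERGLN-int with RLTR1B), and MuRVY, which is rich on the Y chromosome. Older names such as MER52-int, LTR68 or MER90a belong to elements shared more widely among mammals. A sense fragment has the sequence of the element's own transcript. An antisense fragment is complementary to that transcript, as are many of the piwi-interacting RNAs (piRNAs) that guide silencing of retroviruses in male germ cells. Transcripts of piRNA clusters, which contain remnants of such elements, are the source of many piRNAs in the testis. The letters of these copies are not printed, because no sequence of them was at hand.

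The libraries held 3116421 to 6805989 counts in the EtOH group and 4210785 to 4768713 in the control group. All 12 sperm marker genes had counts, with summed levels of 317 to 443 CPM, which are counts scaled to 1e6 per library, in EtOH libraries and 478 to 586 CPM in controls. None of the 12 passed the test, and their median log2 fold change was -0.55. In such a sample fewer sperm cannot be told apart from less RNA per sperm. Markers of the epididymal epithelium, the lining of the duct, summed to 2590, 18946, 719 and 1254 CPM in EtOH replicates 1 to 4, against 370 to 498 CPM in the controls. All 12 epididymal genes had a count in some library, though Lcn5, Lcn8, Lcn9, Cst8, Cst11 and Defb15 were each at 0 in at least 1 library. Of these 12 genes 4 could be tested, Crisp1, Adam7, Cd52 and Wfdc10, and all 4 were higher in EtOH. Over all 6426 genes tested by their exons, 1377 were higher and 27 lower. EtOH replicate 2 stands apart from the other libraries on this measure, and some of the results that rest on it are given with and without it. The sense ratios to other repeat families are given only with it. Leukocyte markers summed to 7.64 to 35.3 CPM in EtOH libraries and 8.95 to 20.7 CPM in controls, and none of the 3 tested passed. Red blood cell markers summed to 1.62 to 17.7 CPM in EtOH libraries and 15.6 to 32.5 CPM in controls, and 2 of the 4 tested were lower in EtOH.

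ERV1 counts were concentrated in few copies. Of the 19878 rows, 5062 were at 0 in all 8 libraries, and a further 4268 sense and 4765 antisense rows had a single count. The copies with 100 or more counts held 90.6% of the 219239 sense counts and 86.8% of the 127167 antisense counts. The 10 most abundant copies of each strand class held 45.2% of the sense counts and 68.9% of the antisense counts. Just inside the limit were RLTR4_MM-int_copy88 with 100 sense counts and MERV1_I-int_copy1227 with 103 antisense counts. Just outside it were MERV1_I-int_copy1226 with 99 sense counts and MURVY-int_copy110 with 97 antisense counts. Both strands of the same copy rarely passed the limit together: 5 copies did so, and all 5 were RLTR14-int copies. Internal parts held 64.3% of the sense counts and 55.0% of the antisense counts, and LTRs the rest.

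As a share of all counts, sense ERV1 fragments took a larger part of every EtOH library than of any control. They made up 0.541%, 1.14%, 0.505% and 0.823% of all counts in EtOH replicates 1 to 4, and 0.350%, 0.356%, 0.384% and 0.409% in control replicates 1 to 4. The means were 0.752% ± 0.294 in EtOH libraries and 0.375% ± 0.0275 in controls (SD, n = 4 each). A difference of 0.377 percentage points gave p = 0.02857 in a two-sided exact permutation test, which cannot go lower with 4 libraries a group. Adjusted over the 9 tests made on library shares and ratios it was 0.1286, so it did not pass the correction. Without EtOH replicate 2 the difference was 0.248 percentage points. As a part of all sense repeat counts, sense ERV1 was 10.3% to 29.2% in EtOH libraries and 6.51% to 8.90% in controls. Relative to the piRNA cluster rows the groups overlapped. Those rows held 34.5% of counts in EtOH replicate 3 and 23.6% in control replicate 1. On that scale sense ERV1 in EtOH replicate 3 lay below every control.

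Antisense ERV1 fragments did not separate the groups. Their shares were 0.351%, 0.349%, 0.421% and 0.192% in EtOH replicates 1 to 4, and 0.337%, 0.239%, 0.288% and 0.337% in control replicates 1 to 4. The means of 0.328% ± 0.0967 in EtOH libraries and 0.300% ± 0.0468 in controls (SD, n = 4 each) differed by less than the spread between EtOH libraries (exact permutation p = 0.5714, adjusted p = 0.6429).

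The sense difference lay in the 3 murine leukemia virus names. Together they held 118938 sense counts, 54.3% of all sense ERV1 counts, and 623 antisense counts, 0.490% of the antisense ones. Their sense share of the library was 0.266%, 0.941%, 0.179% and 0.666% in EtOH replicates 1 to 4, and 0.0697%, 0.151%, 0.134% and 0.138% in control replicates 1 to 4. The groups did not overlap, although EtOH replicate 3 lay close to control replicate 2. With these 3 names taken out, a choice made after the values were seen, sense ERV1 made up 0.239% ± 0.0759 of EtOH libraries and 0.252% ± 0.0333 of controls (SD, n = 4 each; exact permutation p = 0.7714, adjusted p = 0.9143). The bar plot of library shares shows both layers.

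**Figure D1:**
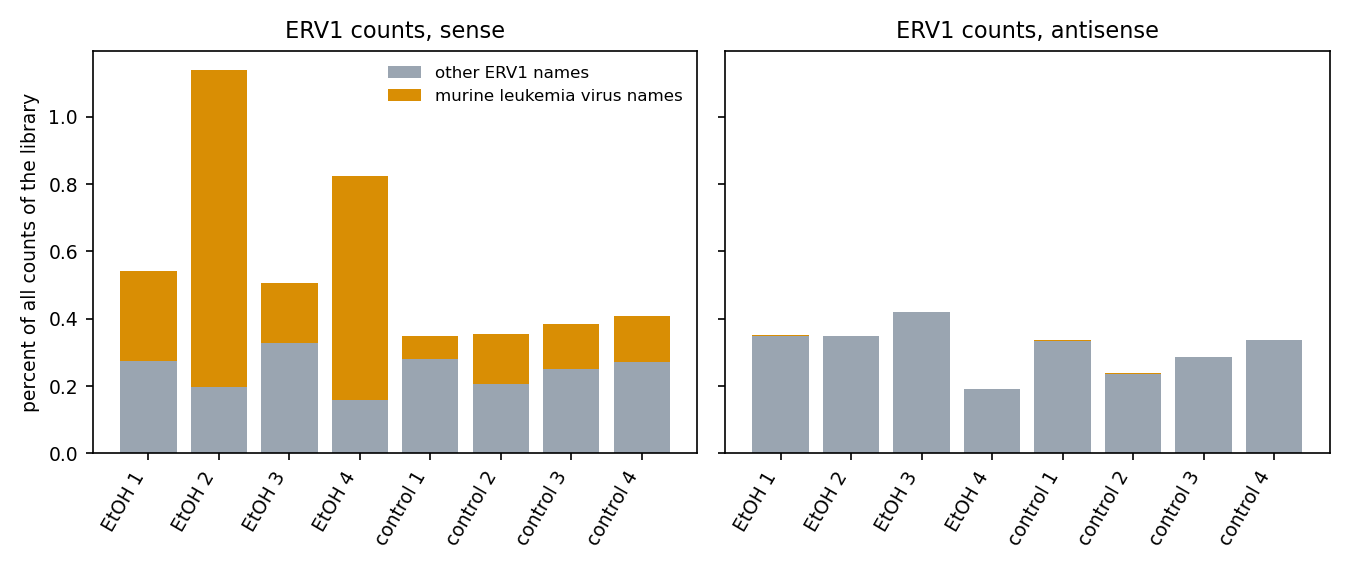
Percent of all counts of each library that came from ERV1 copies, sense on the left and antisense on the right, with the EtOH libraries left of the controls. The murine leukemia virus names (orange) reach 0.941% of the sense panel in EtOH replicate 2 and cannot be made out in the antisense panel, while the other ERV1 names (grey) overlap between the groups.

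Of the 88 name and strand sums with enough counts to test, 3 were higher in EtOH and none was lower (edgeR quasi-likelihood test, adjusted p below 0.05). That is 3.41% of the ERV1 sums, against 14.4% of all 11648 features in the same fit. Over all features 12.1% were higher and 2.3% lower. With p below 0.05 before adjustment, 4 ERV1 sums were higher and 6 lower, 11.4% of them against 33.5% of all features, of which 25.1% were higher and 8.42% lower. Every EtOH library lay above every control in 3 sums and below in 2, against 14.5% and 7.1% of all features. The median log2 fold change of the 88 was -0.42, and 77 of the 88 lay below 0. The median of all features in that fit was 0.03, and with scaling by library size alone it was 0.33. With that scaling 25 of the 88 sums lay above 0 in place of 11, and none of the 3 names passed, with fold changes of the same sign.

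MuLV-int, the internal part that carries the name of the virus itself, had the lowest p of the 3. Its sense level was 808, 1314, 1370 and 2491 CPM in EtOH replicates 1 to 4, and 238, 507, 216 and 329 CPM in control replicates 1 to 4. Every EtOH library lay above every control. The means were 1496 ± 710 CPM in EtOH libraries and 323 ± 132 CPM in controls (SD, n = 4 each), a log2 fold change of 2.21 (SE 0.50, edgeR adjusted p = 0.0229). Sense fragments were 99.5% of the counts of this name. Without EtOH replicate 2 the log2 fold change was 2.24 with an edgeR adjusted p of 0.00616. Without any single control it missed the threshold, with log2 fold changes between 1.77 and 2.47 over all 8 single libraries left out and a highest edgeR adjusted p of 0.0859.

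RLTR4_Mm, the LTR that belongs with it, moved in the same direction. It had 105.9, 241.2, 90.9 and 252.8 CPM of sense fragments in EtOH replicates 1 to 4, and 35.2, 53.0, 69.8 and 60.8 CPM in control replicates 1 to 4. The groups did not overlap. Means of 173 ± 86.1 CPM in EtOH libraries and 54.7 ± 14.7 CPM in controls (SD, n = 4 each) gave a log2 fold change of 1.66 (SE 0.47, edgeR adjusted p = 0.0300). Without EtOH replicate 2 it was 1.41 (edgeR adjusted p = 0.0300), and without EtOH replicate 4 or any single control it missed the threshold, with the highest edgeR adjusted p at 0.133.

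RLTR4_MM-int, the internal part with the most counts of all ERV1 names, did not pass. Its sense level was 1739, 4777, 653 and 3819 CPM in EtOH replicates 1 to 4, and 525, 1086, 1178 and 1396 CPM in control replicates 1 to 4. EtOH replicate 3 lay within the control range, and the other 3 EtOH libraries lay above it. The means were 2747 ± 1886 CPM in EtOH libraries and 1046 ± 371 CPM in controls (SD, n = 4 each), with a log2 fold change of 1.39 (SE 0.57, edgeR adjusted p = 0.102). Without EtOH replicate 3 the log2 fold change was 1.67 and passed (edgeR adjusted p = 0.0200), in a fit that called 3282 of 12688 features. That was 1 of the 8 fits with a single library left out, and RLTR4_MM-int missed the threshold in the rest. Over the 8 fits the log2 fold change ranged from 0.94 to 1.67, with edgeR adjusted p-values up to 0.319.

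The antisense sums of the same 3 names were small and gave log2 fold changes of -0.85 for MuLV-int, -0.31 for RLTR4_MM-int and -0.33 for RLTR4_Mm, none past the threshold. The epididymal marker sums given above, 2590, 18946, 719 and 1254 CPM in EtOH replicates 1 to 4 against 370 to 498 CPM in controls, were also higher in every EtOH library than in any control. The order within the EtOH group differed between the measures. EtOH replicate 2 had the highest marker sum and EtOH replicate 3 the lowest. The same held for RLTR4_MM-int and for the summed sense share of the 3 names. RLTR4_Mm was also lowest in EtOH replicate 3, but highest in EtOH replicate 4, at 252.8 CPM against 241.2 CPM in EtOH replicate 2. MuLV-int was highest in EtOH replicate 4 and lowest in EtOH replicate 1. The part of those markers in the difference was not tested.

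**Figure D2:**
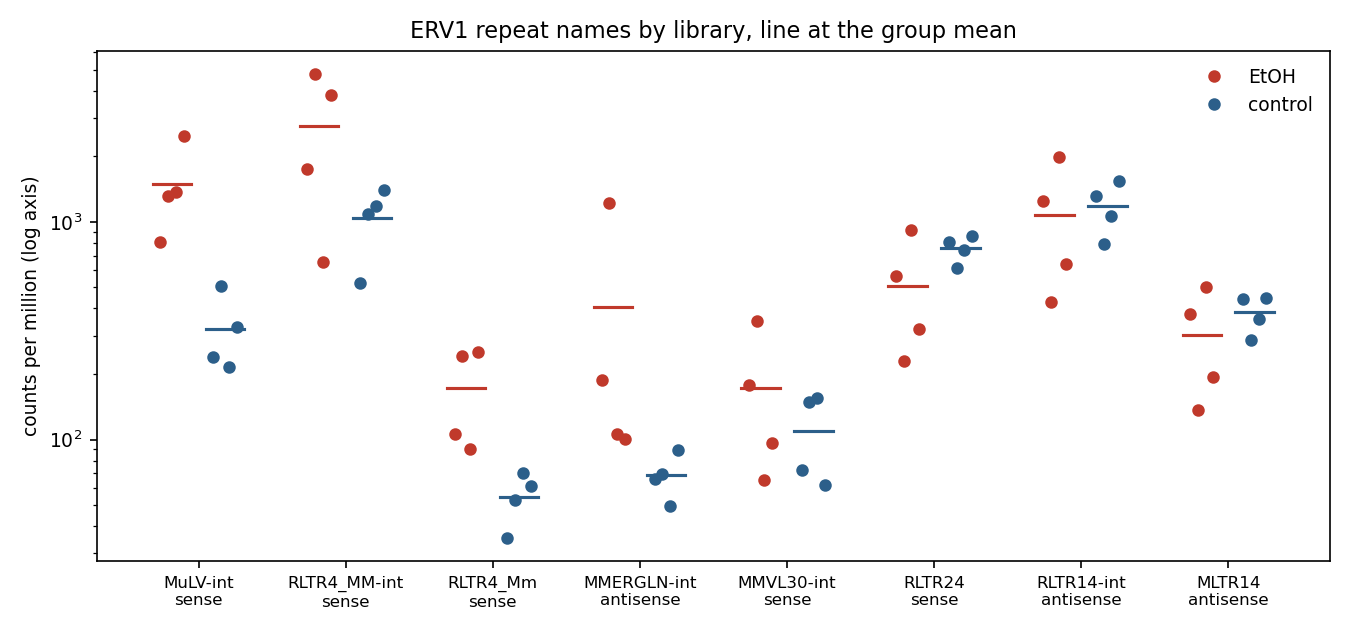
Level of 8 ERV1 names in CPM on a log axis, a point for each library and a line at the group mean, with EtOH left of control for each name. The EtOH points of MuLV-int, RLTR4_Mm and antisense MMERGLN-int lie above all control points, while those of RLTR24, RLTR14-int and MLTR14 spread across the controls or below them.

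The copies that made up the murine leukemia virus signal differed from library to library. In MuLV-int a pair of copies held most of the counts. MuLV-int_copy203 had 45, 45, 3469 and 13019 counts in EtOH replicates 1 to 4, and 7, 1774, 174 and 19 in control replicates 1 to 4. MuLV-int_copy205 had 4873, 3213, 742 and 1058 counts in EtOH replicates 1 to 4, and 804, 6, 364 and 827 in control replicates 1 to 4. MuLV-int_copy203 gave 90.4% of the name in EtOH replicate 4 and 90.9% in control replicate 2, while MuLV-int_copy205 gave 90.3% in EtOH replicate 1 and 88.6% in control replicate 1. Neither copy passed on its own, with log2 fold changes of 2.35 (SE 1.67, edgeR adjusted p = 0.394) for MuLV-int_copy203 and 1.98 (SE 0.96, edgeR adjusted p = 0.201) for MuLV-int_copy205.

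RLTR4_MM-int was spread over more copies, with the same change of leading copy. RLTR4_MM-int_copy432 had 7049 counts in EtOH replicate 4 and 0 to 23 counts in each of the other 7 libraries. RLTR4_MM-int_copy137 had 4857 counts in EtOH replicate 2, 170 in control replicate 2 and 0 to 7 elsewhere. RLTR4_MM-int_copy75 led in EtOH replicate 3 with 642 counts and had 0 to 6 in the other libraries. RLTR4_MM-int_copy376 had 1599, 4793, 2 and 2323 counts in EtOH replicates 1 to 4, and 206, 220, 537 and 460 in control replicates 1 to 4. RLTR4_MM-int_copy292 ran close to it in all 8 libraries, with 1232, 4684, 6 and 2382 counts in EtOH replicates 1 to 4, and 266, 223, 580 and 371 in control replicates 1 to 4. RLTR4_MM-int_copy293 and RLTR4_MM-int_copy377 had identical counts throughout, 0, 779, 349 and 2959 in EtOH replicates 1 to 4, and 0, 666, 735 and 633 in control replicates 1 to 4. Such pairs were found only here: 12 of the 79 murine leukemia virus copies shown had the same 8 counts as another ERV1 row, and none of the other copies shown did. No source used here says how reads that match several copies were assigned, so the level of any single copy of these names is uncertain. If such reads were split among copies, the sums by name bring them together. If they were counted at each copy, the sums and shares of these names count them more than once.

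**Figure D3:**
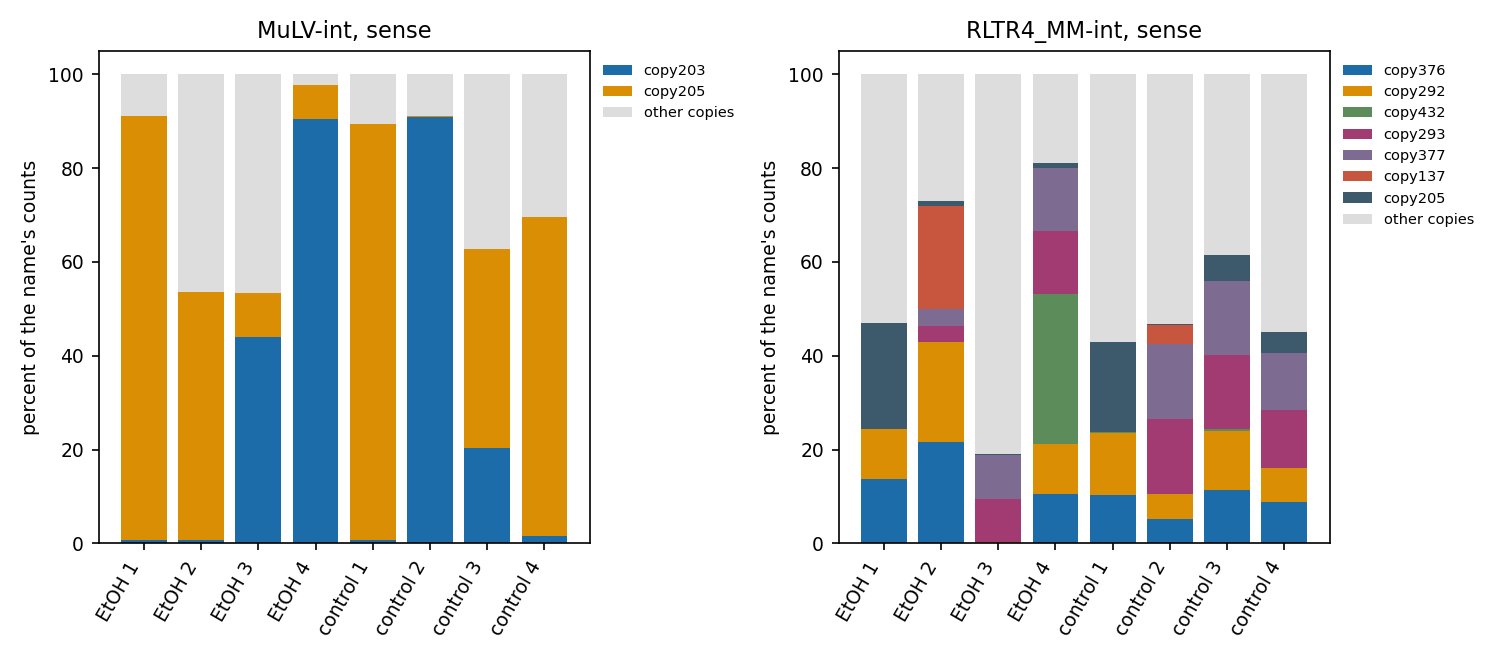
Percent of the sense counts of MuLV-int (left) and RLTR4_MM-int (right) that came from the most abundant copies in each library, with EtOH libraries left of controls and the remaining copies in grey. In MuLV-int the bar is nearly all copy203 in EtOH replicate 4 and control replicate 2 and nearly all copy205 in EtOH replicate 1 and control replicate 1.

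Gaps of this kind were common in the murine leukemia virus copies. Of their 79 sense copies with 100 or more counts, 55 were at 0 in at least 1 library, which is 69.6%, against 10 of the other 66 sense copies and 3 of the 41 antisense copies. More than 50% of the counts of a copy came from a single library in 29 of the 79, against 7 of the other 66 sense copies and 1 of the 41 antisense copies. A filter on low counts passed 56 of the 79. Of those 56, 51 had a fitted log2 fold change above 0. The median of the 56 was 1.54, against -0.09 over all 10234 features of that fit. In 5 every EtOH library lay above every control, or 8.93% against 7.34% of all single features. These copies are not independent of each other. RLTR4_Mm_copy123, RLTR4_Mm_copy126, RLTR4_Mm_copy189 and RLTR4_Mm_copy192 had identical counts, so their log2 fold change of 1.54 entered the median more than once. Some of the 56 passed the filter only through the EtOH libraries.

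Among all 162 ERV1 copies tested singly, 1 was higher and 1 lower (edgeR adjusted p below 0.05), which is 1.23% against 0.186% of the 10234 features of that fit, of which 0.0489% were higher and 0.137% lower. Before adjustment, 22 copies were higher and 7 lower at p below 0.05, 17.9% against a background of 27%, made up of 17.9% higher and 9.15% lower. Every EtOH library lay above every control in 6 copies and below in 3, against 7.34% and 7.81% of all features. The higher copy was RLTR4_MM-int_copy187, with 64, 56, 215 and 46 sense counts in EtOH replicates 1 to 4, and 4, 11, 5 and 4 in control replicates 1 to 4. It had a log2 fold change of 3.33 (SE 0.59, edgeR adjusted p = 0.0433), at levels of 17.1 ± 10.9 CPM in EtOH libraries and 1.70 ± 1.13 CPM in controls (SD, n = 4 each). Every EtOH library lay above every control. It entered the test through the EtOH libraries, since control replicate 2 was the only control with 10 or more counts. With a filter on a mean count of at least 10 it was not called. It also missed the threshold without EtOH replicate 4 or any single control, with edgeR adjusted p-values up to 0.134. The next copies of the group were RLTR4_MM-int_copy60, with a log2 fold change of 2.07 (edgeR adjusted p = 0.0531), and RLTR4_Mm_copy31, with 2.07 (edgeR adjusted p = 0.0541). Both of these also entered the test through the EtOH libraries.

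The lower copy was a single copy of RMER5, a rodent LTR. RMER5_copy3499 had no sense count in any of the 4 EtOH libraries, against 10, 10, 24 and 22 counts in control replicates 1 to 4. With 66 counts in all it is under the limit for copies shown and is named because it passed the test (edgeR adjusted p = 0.00855). It entered the test only through the control libraries, and a filter on a mean count of at least 10 left it untested. Set against a floor of 3 counts over the EtOH group, it was at least 32.2-fold lower in EtOH. It missed the threshold without EtOH replicate 4, with an edgeR adjusted p of 0.0581, and without control replicate 3, with 0.0727. Its antisense side did not behave the same way: RMER5_copy3499 had 118, 28, 153 and 49 antisense counts in EtOH replicates 1 to 4, and 98, 74, 82 and 128 in control replicates 1 to 4, a log2 fold change of -0.78 (edgeR adjusted p = 0.246). The sum of all sense RMER5 copies had a log2 fold change of -0.89 (edgeR adjusted p = 0.147).

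The GLN elements, named for the glutamine transfer RNA that primes their reverse transcription, were seen mostly as antisense. MMERGLN-int had 9170 antisense counts, 93.7% of its total. Its antisense level was 188, 1226, 107 and 100 CPM in EtOH replicates 1 to 4, and 65.7, 69.3, 49.4 and 89.8 CPM in control replicates 1 to 4. The groups did not overlap, but EtOH replicate 2 was several times higher than the other EtOH libraries. The means were 405 ± 549 CPM in EtOH libraries and 68.6 ± 16.6 CPM in controls (SD, n = 4 each), a log2 fold change of 2.56 (SE 0.71, edgeR adjusted p = 0.0280). Without EtOH replicate 2 the EtOH mean was 132 ± 49.0 CPM (SD, n = 3), the log2 fold change 0.87 and the edgeR adjusted p 0.117. It also missed the threshold without any single control, with adjusted p-values up to 0.0973. EtOH replicate 2 is also the library with the highest epididymal marker sum, and the part of that in this result was not tested.

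Nearly all of this came from a single copy. MMERGLN-int_copy269 gave 92.6% of the antisense counts of its name, with 1104, 5651, 522 and 510 counts in EtOH replicates 1 to 4, and 120, 192, 140 and 253 in control replicates 1 to 4. In CPM that was 172, 1711, 79.0 and 98.4 in EtOH replicates 1 to 4, and 31.6, 58.8, 39.3 and 62.1 in control replicates 1 to 4, so every EtOH library was above every control. Its log2 fold change of 3.42 (SE 0.90) missed the threshold in the fit of single copies (edgeR adjusted p = 0.0525). Without EtOH replicate 2 the EtOH mean of MMERGLN-int_copy269 was 117 ± 49.2 CPM (SD, n = 3) in place of 515 ± 798 CPM (SD, n = 4), and the log2 fold change was 1.29 (edgeR adjusted p = 0.0695). The sense side of MMERGLN-int, 613 counts in all, had 13.9 ± 4.41 CPM in EtOH libraries and 19.1 ± 5.16 CPM in controls (SD, n = 4 each), which differed by about the spread between libraries. RLTR1B-int, the other internal name of this group, had log2 fold changes of -0.28 sense and -0.60 antisense, and neither passed.

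The VL30 elements, whose transcripts are known to be packaged by murine leukemia virus particles, did not pass the test. MMVL30-int had sense levels of 179, 352, 65.4 and 96.3 CPM in EtOH replicates 1 to 4, and 72.8, 149, 155 and 61.7 CPM in control replicates 1 to 4. Only EtOH replicates 1 and 2 lay above the highest control. The log2 fold change was 0.66 (SE 0.53, edgeR adjusted p = 0.393), and without EtOH replicate 2 it was -0.03. The LTR RLTR6_Mm had a sense log2 fold change of 0.73 (edgeR adjusted p = 0.269) and RLTR6-int one of -0.38 (edgeR adjusted p = 0.574).

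Most other abundant ERV1 names followed the piRNA clusters of their library. The piRNA cluster rows made up 25.7%, 13.02%, 34.5% and 14.4% of counts in EtOH replicates 1 to 4, and 23.6%, 14.7%, 20.3% and 25.1% in control replicates 1 to 4. Antisense RLTR14-int was the largest antisense name, with 43424 counts or 34.1% of antisense ERV1. Per 1000 piRNA cluster counts it had 4.89, 4.88, 4.85 and 4.52 counts in EtOH replicates 1 to 4, and 4.85, 4.94, 4.78 and 4.77 in control replicates 1 to 4. The highest of the 8 libraries was 1.09 times the lowest. In CPM the same name ranged 4.64-fold, from 428 CPM in EtOH replicate 2 to 1982 CPM in EtOH replicate 3, and its log2 fold change was -0.13 (SE 0.51, edgeR adjusted p = 0.884).

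The RLTR14-int counts came from neighbours in the table's own numbering. The 9 copies numbered 1311 to 1319 held 99.1% of its antisense counts and 33.8% of all antisense ERV1. RLTR14-int_copy1315 led with 14207 antisense counts, followed by RLTR14-int_copy1313 with 11501 and RLTR14-int_copy1314 with 9120. The division among them was steady: RLTR14-int_copy1315 held between 30.9% and 34.2% of the name in every library, and RLTR14-int_copy1313 between 25.6% and 28.2%. The 5 copies that passed 100 counts on both strands were in this run, with antisense counts from 1579 to 14207 and sense counts from 100 to 500. Genome positions of these copies are not given here, since the table names copies by number alone.

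Other names kept a similar pace with the clusters. Sense MLTR14 had 1.88 to 2.14 counts per 1000 piRNA cluster counts over the 8 libraries, sense LTR68 0.528 to 0.616, sense RMER21B 0.338 to 0.399 and antisense RLTR14_RN 0.258 to 0.318. Of the 31 sums of 1000 or more counts outside the murine leukemia virus names, 26 ranged less than 2-fold on this scale, with a median of 1.45-fold, while their median range in CPM was 4.77-fold. The exceptions were antisense RLTR24 at 2.27-fold, sense RLTR14-int at 2.34-fold, sense RMER5 at 4.62-fold, sense MMVL30-int at 25.1-fold and antisense MMERGLN-int at 63.0-fold. The sense sums of the 3 murine leukemia virus names ranged 19.9- to 34.1-fold. On this scale the groups overlapped in all 3. MuLV-int had 3.160 in EtOH replicate 1 and 3.162 in control replicate 2. RLTR4_Mm had 0.223 in EtOH replicate 3, below 0.330 in control replicate 2. RLTR4_MM-int had 1.60 in EtOH replicate 3, below the lowest control at 1.94. All 31 share the depth and the cluster counts of the same 8 libraries, so these ranges are a description and carry no test.

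**Figure D4:**
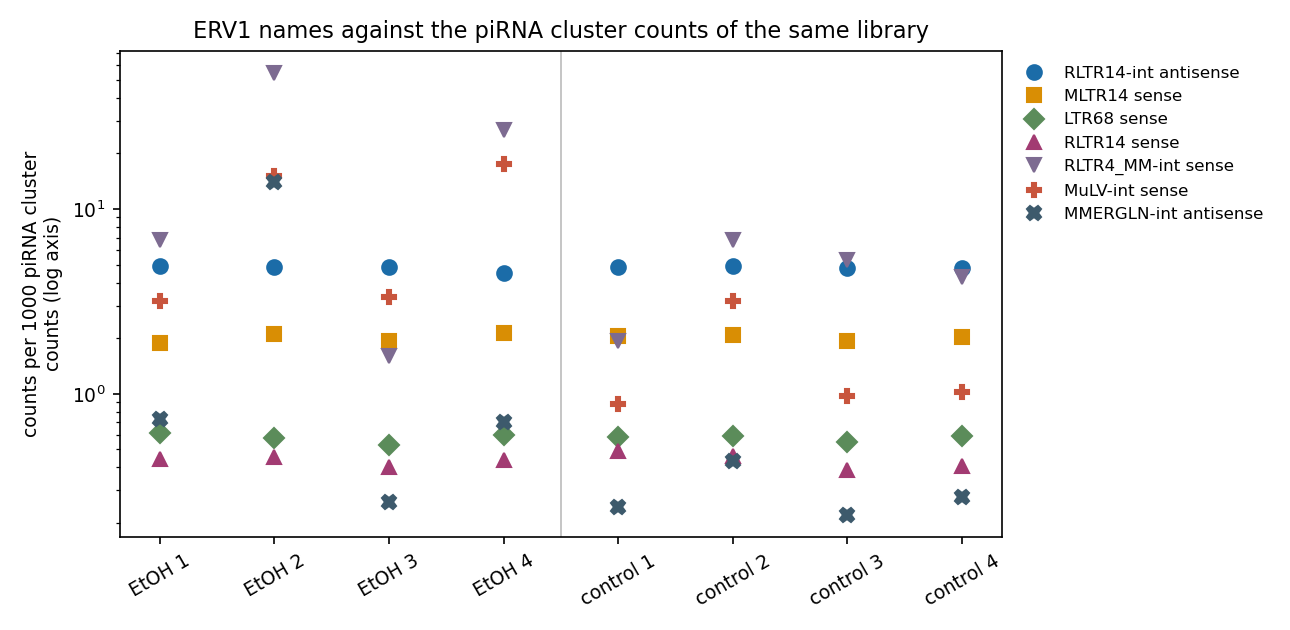
Counts of 7 ERV1 names per 1000 piRNA cluster counts of the same library, on a log axis, with EtOH libraries left of the grey line and controls right of it. RLTR14-int stays between 4.52 and 4.94 and LTR68 between 0.528 and 0.616 in all 8 libraries, while RLTR4_MM-int, MuLV-int and MMERGLN-int lie far above their control values in EtOH replicate 2. In EtOH replicate 3, RLTR4_MM-int lies below all of its control values.

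Many of these steady names were again a single copy. Of the 31 sums, 12 had over 90% of their counts in their most abundant copy. MER52-int_copy157 gave 99.5% of sense MER52-int and had 243, 102, 341 and 132 CPM in EtOH replicates 1 to 4, and 289, 266, 252 and 272 CPM in control replicates 1 to 4. MER90a_copy232 gave 98.6% of antisense MER90a and had 269, 94.2, 295 and 114 CPM in EtOH replicates 1 to 4, and 256, 191, 203 and 242 CPM in control replicates 1 to 4. In both, EtOH replicates 2 and 4 were lowest, the libraries with the lowest piRNA cluster share of the EtOH group. LTR68_copy52 gave 99.7% of sense LTR68, and LTRIS4_copy32 gave 99.4% of sense LTRIS4. Antisense MERV1_I-int had 89.6% of its 11149 counts in MERV1_I-int_copy1226, whose log2 fold change was -0.07 (SE 0.46, edgeR adjusted p = 0.946).

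RLTR24, a rodent LTR, was set against the clusters in the same way. Sense RLTR24 had 2.21, 2.60, 2.25 and 2.26 counts per 1000 piRNA cluster counts in EtOH replicates 1 to 4, and 2.999, 3.82, 3.32 and 2.66 in control replicates 1 to 4. The antisense sum had 0.895, 0.946, 0.888 and 0.990 in EtOH replicates 1 to 4, and 1.34, 2.02, 1.63 and 1.36 in control replicates 1 to 4. On this scale every EtOH library lay below every control on both strands, by a narrow gap for sense. How many features separate in this way on this scale was not counted. In CPM the sense groups overlapped, with EtOH replicate 3 at 918 CPM above the highest control at 860 CPM. The tests on scaled counts did not pass: the log2 fold changes were -0.57 sense (edgeR adjusted p = 0.408) and -0.87 antisense (edgeR adjusted p = 0.204). RLTR24_copy458, a sense copy, had 38, 84, 33 and 40 counts in EtOH replicates 1 to 4, and 201, 141, 88 and 356 in control replicates 1 to 4, a log2 fold change of -2.26 (SE 0.59, edgeR adjusted p = 0.0525). In CPM, EtOH replicate 2 at 25.4 lay above control replicate 3 at 24.7, so the groups overlapped. Without EtOH replicate 2 the EtOH mean of RLTR24_copy458 was 6.21 ± 1.38 CPM (SD, n = 3), in place of 11.02 ± 9.68 CPM (SD, n = 4), and the log2 fold change of -3.12 passed (edgeR adjusted p = 0.00815). That fit called 487 of 11608 features, against 19 of 10234 in the fit of all 8 libraries. RLTR24_copy458 passed in 2 of the 8 fits with a single library left out, with edgeR adjusted p-values up to 0.134.

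The MuRVY and MuRRS elements, relatives of murine leukemia virus, were scarce in comparison. MURVY-int had 143 sense counts and 1314 antisense counts. Its sense level was 5.24, 0.648, 1.74 and 2.08 CPM in EtOH replicates 1 to 4, and 5.26, 4.93, 6.05 and 5.41 CPM in control replicates 1 to 4, a log2 fold change of -1.11 (edgeR adjusted p = 0.117). Antisense MURVY-int had a log2 fold change of -0.16 (edgeR adjusted p = 0.851). MuRRS-int had 3294 sense counts and a log2 fold change of -0.36 (edgeR adjusted p = 0.615). The sense names with the lowest p among those below 0 were RLTR1A2_MM (log2 fold change -1.36, edgeR adjusted p = 0.0503), LTR72_RN (-1.27, adjusted p = 0.0582) and RLTR23 (-1.31, adjusted p = 0.0604), each with fewer than 200 counts. By group of names, the median log2 fold change of the sense sums was 1.66 for murine leukemia virus and 0.14 for VL30, and it was below 0 for every other group in the scaling used. On the antisense strand it was 0.07 for GLN and 0.12 for the single sum of the other RLTR1 names, and below 0 elsewhere.

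**Figure D5:**
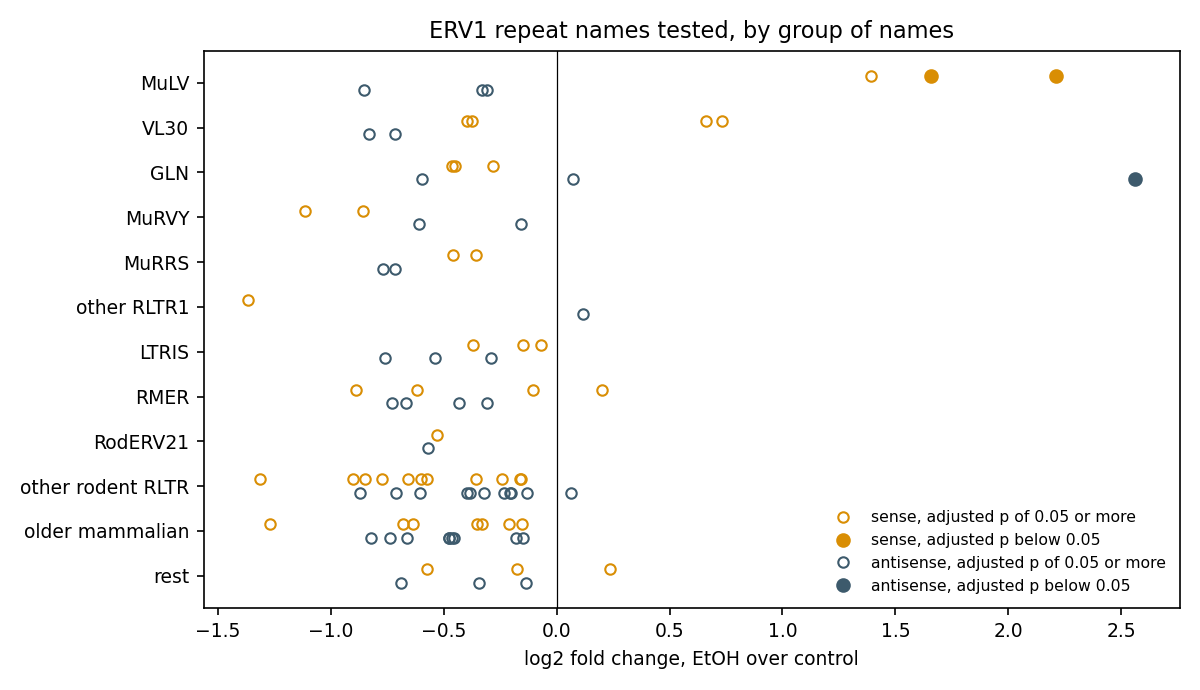
Log2 fold change, EtOH over control, of the 88 ERV1 sums tested, by group of names, sense above antisense in each group, with filled points for an edgeR adjusted p below 0.05. The 3 filled points are sense MuLV-int at 2.21, sense RLTR4_Mm at 1.66 and antisense MMERGLN-int at 2.56, and 77 of the 88 points lie left of 0.

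Set against other repeat families, sense ERV1 stood higher in all 4 EtOH libraries relative to LINE L1, and none of the 7 ratios passed the correction. The log2 ratio of sense ERV1 to sense LINE L1, the main active non-viral retrotransposon of the mouse, was -1.26, 0.02, -1.58 and -0.60 in EtOH replicates 1 to 4, and -2.61, -2.28, -2.23 and -2.03 in control replicates 1 to 4. Every EtOH library lay above every control, with a difference of means of 1.43 (two-sided exact permutation p = 0.02857, adjusted p = 0.1286). Sense LINE L1 itself was lower in every EtOH library than in any control, 1.30% ± 0.162 of the counts of EtOH libraries and 1.83% ± 0.208 of those of controls (SD, n = 4 each). Against ERVK, the family of the intracisternal A particles, the sense difference was 1.12 (exact permutation p = 0.05714, adjusted p = 0.1714). Against ERVL with ERVL-MaLR it was 1.06 (exact permutation p = 0.08571, adjusted p = 0.1929). The antisense differences were 0.35 against LINE L1, 0.23 against ERVK and 0.20 against ERVL with ERVL-MaLR, with adjusted exact permutation p-values of 0.2571, 0.6429 and 0.8286. They were 0.11, -0.01 and -0.05 without EtOH replicate 2, in the same order, so the last 2 lost their direction. Without the murine leukemia virus names the sense differences were 0.38, 0.07 and 0.01, in the same order of families. The log2 ratio of sense to antisense ERV1 was 1.17 ± 0.870 in EtOH libraries and 0.33 ± 0.219 in controls (SD, n = 4 each; exact permutation p = 0.1429, adjusted p = 0.2571).

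By repeat name, the other families had few calls too, in a fit that called 14.4% of all 11648 features, 12.1% higher and 2.3% lower. Among ERVK sums, 1 of 166 sense names was higher and 1 lower, and 2 of 167 antisense names were lower. Among ERVL and ERVL-MaLR sums, 1 of 109 sense names was lower and none of 120 antisense names passed. Among LINE L1 sums, 1 of 94 sense names was lower and none of 100 antisense names passed. Their median log2 fold changes lay between -0.62 and -0.48, next to -0.37 for the 44 sense and -0.46 for the 44 antisense ERV1 sums.

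Fragments of the genes that act on retroviruses gave no call. In sperm these are fragments of messenger RNA and do not measure the proteins. Of 23 genes of the piRNA pathway 10 could be tested, and none passed, with a median log2 fold change of -0.08. Piwil1 and Piwil2, which encode PIWI proteins that bind piRNAs, had log2 fold changes of 0.11 and -0.35. Of the genes that silence retroviral chromatin 9 could be tested and none passed, with a median of 0.73. Trim28, the corepressor recruited to MuLV and other retroviruses by zinc-finger proteins, had 1.02 (edgeR adjusted p = 0.122). Of the restriction factors 4 could be tested and none passed, with a median of 1.52, and Apobec3, which restricts murine leukemia virus, had 1.62 (edgeR adjusted p = 0.0948). Of the virus receptors 2 could be tested, and Slc7a1, the entry receptor of ecotropic murine leukemia virus, had 0.99 (edgeR adjusted p = 0.107). The median over all 6426 genes tested by their exons was 0.81, with 1377 higher and 27 lower.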

How the data were processed

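Small RNA of mouse sperm was sequenced in 8 libraries. The deposited values are whole-number counts per annotated feature, with no normalization, per the file headers and values. The submitters' processing notes name cutadapt for adapter trimming, and per the labels only the first read of a pair was used. Aligner, genome build, repeat annotation and the treatment of multiply matching reads: not given in the sources used here.

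Groups came from the treatment label, and columns were matched to samples by title. 2 tables were fitted with edgeR 4.0.16 (quasi-likelihood F test, trimmed mean of M values, filterByExpr with minimum count 10 and minimum total 15, R 4.3.3): all rows as deposited (10234 tested), and a table with repeat copies of every family summed by name and strand class and exons by gene (11648 tested). Benjamini-Hochberg adjustment ran over each whole fit, and 0.05 was the threshold. Fold changes are on the log2 scale, with EtOH on top. CPM use the scaled library sizes of the fit, and shares and marker sums use library totals. Shares and log2 ratios were compared by two-sided exact permutation over the 70 splits, adjusted over 9 tests. Floors cover counting error only. Named sums and copies are the 10 most abundant per strand class, those past the threshold and the 4 with the lowest p per direction, and other copies were named after their values were seen. A copy that this rule names is not reported here. The members and lists were chosen with earlier results of these data known, and MuLV-int was added to the murine leukemia virus group after the names were seen. Alternatives were median-of-ratios size factors, library size alone, a mean count of at least 10, no filter, DESeq2 1.42.0, limma 3.58.1 voom with quality weights, each library left out, and only EtOH libraries with M or with EM identifiers. For the library shares, alternatives were the share of all repeat counts of the same strand class and the log2 ratio to piRNA cluster counts. Leaving out the murine leukemia virus names was added after the data were seen. The steps were tested on simulated data.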

Additional observations from a re-analysis of the deposited data

Results flagged for a closer look

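A gap test marked 8 values in which a single library lay far from the other 3 of its group. Chance marks about 1 in 20 groups. The number of groups examined is not given here, so the 8 cannot be read against that rate. EtOH replicate 2 accounts for 5 of them. Its log2 ratio of antisense ERV1 to antisense ERVK was -0.35, against -1.37 to -1.26 in the other EtOH libraries, and its ratio to antisense ERVL with ERVL-MaLR was -0.92, against -1.96 to -1.82. Antisense MMERGLN-int was at 1226 CPM in that library and at 100.1 to 188 CPM in the other EtOH libraries. MMERGLN-int_copy269 was at 1711 CPM there and at 79.0 to 172 CPM in the others. This copy held 5651 of the 10882 antisense ERV1 counts of EtOH replicate 2. The marks on the antisense ratios, on the name and on the copy therefore share these counts and are not separate. RLTR24_copy458 had 25.4 sense CPM there and 4.997 to 7.72 CPM in the others.

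RLTR4_MM-int_copy432 was marked in both groups, for EtOH replicate 4 at 1360 CPM, against 0 to 1.51 CPM in the other EtOH libraries, and for control replicate 3 at 6.46 CPM, against 0 to 0.791 CPM in the other controls. MuLV-int_copy203 was marked for control replicate 2 at 543 CPM, against 1.85 to 48.9 CPM in the other controls.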

How the results depend on the processing

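No paired analysis was possible because the replicate numbers were given in accession order and pair nothing. Of the ERV1 sums by name, 3 passed in the fit reported. Library size alone gave 0, a mean count of at least 10 gave 5, DESeq2 gave 7, with 1 adjusted p left as NA, and the fits with 1 library left out gave 0 to 9, with 0 when any single control was left out and 9 without EtOH replicate 3. The calls over all features moved too: 1681 of 11648 in the fit reported, 4 with library size alone, 2688 with DESeq2, 8 to 476 with a control left out, and 3282 of 12688 without EtOH replicate 3. Median-of-ratios size factors and no filter gave 4 each, voom 3, and the EtOH libraries with EM or M identifiers alone 2 and 3. All 3 sums of the fit reported were higher, but other fits also gave lower ones. DESeq2 gave 2 higher and 5 lower, and a mean count of at least 10 gave 3 and 2. Without EtOH replicate 1 they were 3 and 5, without EtOH replicate 2 they were 2 and 3, and without EtOH replicate 3 they were 4 and 5. Antisense MMERGLN-int was not among the DESeq2 calls, and the NA was an antisense sum. Of the single copies, 2 passed in the fit reported. Median-of-ratios size factors and library size alone gave 1 each, a mean count of at least 10 gave 0, no filter gave 77, DESeq2 gave 17, voom gave 10, the EtOH libraries with M identifiers alone gave 24 and those with EM identifiers alone 3. With 1 library left out the count ranged from 0, without EtOH replicate 4 or control replicate 3, to 33, without EtOH replicate 3. Read against all features, the 17 of 162 copies by DESeq2 stand beside 1747 of 10234, the 10 of 162 by voom beside 803 of 10234, the 24 of 207 with M identifiers beside 2572 of 13606, the 33 of 179 without EtOH replicate 3 beside 2332 of 11584, and the 77 of 14816 without a filter beside 1642 of 867194. Without the murine leukemia virus names the difference in sense share turned to -0.0127 percentage points and that in the log2 ratio of sense to antisense ERV1 to -0.21, and the cause was not tested. No difference in shares or ratios passed the correction, and with a library left out the smallest exact p is 0.05714, so those fits say nothing about stability. Of 796 values of single named sums and copies, 80 changed sign with neither value past the threshold. The levels of single copies and of sums by name are limited by how reads that match several copies were assigned. In addition, 4 libraries a group cannot give an exact p below 0.02857.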
